A study of Mus musculus with 26 samples.

Results

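IGHV14 is a family of mouse immunoglobulin heavy-chain variable genes, also known as the SM7 family. It was studied here through its 4 members IGHV14-1, IGHV14-2, IGHV14-3 and IGHV14-4, which are 4 of the 188 V genes named in the deposited tables. The members were found by V gene name, and the family was chosen by its share of clonotypes, which an earlier look at the same tables had put higher in spleen than in lymph node. Its level in spleen against any other tissue is therefore given as a description with no test. A clonotype was defined as a V gene, a J gene and a junction nucleotide sequence, and 66686 of 1674869 clonotypes, holding 159575 of 4007742 copies, used an IGHV14 gene.

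The study sequenced heavy-chain transcripts of skin, spleen and lymph node from wild-type (WT) mice under S. epidermidis association, a bacterium of normal skin flora that the labels spell "S. epidermidies". Each tissue had 4 biological replicates with 2 technical libraries each, and a positive control labelled as WT B cells with no stated treatment had 2 technical libraries. All tissue groups carried the association, so none of them is an untreated group. The tissue comes from the library titles, since the tissue label reads ear skin for every tissue library, and tables of heavy-chain transcripts hold no markers to check it. The labels state neither age, sex nor whether replicates were separate animals, so p-values measure the spread between these samples. The depth of a replicate was 4976 to 7495 copies for skin, 162168 to 1362176 for spleen and 93191 to 228065 for lymph node, and that of the control was 645566.

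A heavy-chain V gene supplies the framework and the first 2 complementarity-determining regions (CDRs) of an antibody, and recombination joins it to a D and a J gene across the CDR3. Naive B cells make IgM and IgD from the same rearranged gene by alternative splicing, whereas IgA and IgG follow class switching. In germinal centres the rearranged V gene collects somatic mutations, which the tables report as mismatches to the germline gene. IgA is the main antibody class of mucosal surfaces.

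The 4 genes lie in the heavy-chain locus on chromosome 12 and are annotated as V segments by RefSeq on GRCm38.p6, the mm10 build. IGHV14-1 is at chr12:113931953-113932246, IGHV14-2 at chr12:113994469-113994898, IGHV14-3 at chr12:114059845-114060273 and IGHV14-4 at chr12:114176438-114176867. Ordered by coordinate from the constant-gene end, they are V genes 35, 39, 43 and 53 of 183 annotated ones. The tables cover each gene from the first base of CDR2 into the junction, and the germline stretches below were read from sequences with 0 mismatches. Their agreement at every position follows from that choice and is no separate support for the stretches. They are shown because the whole distinction between the members rests on them. Capitals mark bases that differ from IGHV14-3*01, and the first 24 bases are CDR2.
IGHV14-1*01: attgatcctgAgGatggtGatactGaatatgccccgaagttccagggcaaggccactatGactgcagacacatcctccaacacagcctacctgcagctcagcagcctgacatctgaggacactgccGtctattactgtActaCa
IGHV14-2*01: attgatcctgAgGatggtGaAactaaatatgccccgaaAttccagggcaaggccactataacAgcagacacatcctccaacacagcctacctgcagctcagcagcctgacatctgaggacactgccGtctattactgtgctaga
IGHV14-3*01: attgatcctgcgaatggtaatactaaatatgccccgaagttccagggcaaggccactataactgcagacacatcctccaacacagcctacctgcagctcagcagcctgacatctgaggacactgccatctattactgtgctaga
IGHV14-4*01: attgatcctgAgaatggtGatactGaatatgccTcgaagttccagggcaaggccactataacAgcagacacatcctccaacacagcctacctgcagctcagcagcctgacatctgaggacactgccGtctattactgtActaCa
IGHV14-1, IGHV14-2 and IGHV14-4 differ from IGHV14-3 at 8, 7 and 8 bases, several of them within CDR2. IGHV14-1 and IGHV14-4 are the closest pair, with 4 differences, and both end in the same junction start, while IGHV14-2 and IGHV14-3 share the other.

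The control used other alleles of the family than the tissues did. In the control, 2764 of 2775 IGHV14-1 sequences, 14042 of 14049 IGHV14-3 sequences and 3676 of 3739 IGHV14-4 sequences were assigned to allele *02. In spleen the *02 share was 0.130% of 3842 IGHV14-1, 2.68% of 24792 IGHV14-3 and 0.611% of 16686 IGHV14-4 sequences. IGHV14-2 was nearly missing from the control, with 23 of 386982 clonotypes, all on allele *02. The sources used here do not give the strain of the control mice. The *02 stretches follow because they set the control apart from the tissues, with capitals where each differs from its own *01.
IGHV14-1*02: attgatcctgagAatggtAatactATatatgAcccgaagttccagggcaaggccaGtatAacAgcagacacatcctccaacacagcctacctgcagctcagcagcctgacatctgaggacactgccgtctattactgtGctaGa
IGHV14-3*02: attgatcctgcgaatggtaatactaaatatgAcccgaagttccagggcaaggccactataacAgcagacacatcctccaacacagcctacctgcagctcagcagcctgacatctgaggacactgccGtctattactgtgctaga
IGHV14-4*02: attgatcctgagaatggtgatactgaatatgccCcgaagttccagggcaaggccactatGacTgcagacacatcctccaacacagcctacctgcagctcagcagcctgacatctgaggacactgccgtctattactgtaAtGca
The alleles differ at 10, 3 and 5 bases, and C32A and T63A, counted from the first base of CDR2, are shared by IGHV14-1*02 and IGHV14-3*02. Levels in the control are therefore levels of partly different sequences.

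The family made up 1.71, 2.50, 3.42 and 4.36% of clonotypes in the 4 skin replicates, 9.09, 3.0, 4.97 and 5.31% in spleen, and 1.93, 2.33, 2.31 and 2.48% in lymph node, each in replicate order, and 4.39% in the control. Every spleen value stood above every lymph node value, which is the pattern that chose the family, and spleen replicate 1 was far above the others. Skin overlapped both organs. Skin averaged 3.0 ± 1.15%, spleen 5.59 ± 2.54% and lymph node 2.26 ± 0.232% (SD, n = 4 each). In skin the family held 4.0, 5.15, 3.53 and 10.9% of IgA clonotypes, from 2, 5, 3 and 10 clonotypes. It held 1.70, 1.15, 2.62 and 1.38% of skin IgM clonotypes, from 4, 2, 5 and 2 clonotypes. The skin IgM mean was 1.71 ± 0.645%, against 2.11 ± 0.214% in lymph node IgM. The total skin share thus combines isotypes that differed. Counted as copies, spleen replicate 2 fell inside the lymph node range, with 2.3% against 1.85 to 3.0%. The technical libraries of a spleen or lymph node replicate gave close shares, such as 9.02 and 9.13% in spleen replicate 1, whereas those of skin differed widely, such as 7.14 and 3.28% in skin replicate 4.

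The 4 genes did not contribute alike. IGHV14-3 was the most used member in every spleen replicate, with 3.94, 1.36, 2.23 and 2.20% of clonotypes, against 0.727, 0.750, 0.958 and 0.721% in lymph node. IGHV14-4 followed in spleen with 2.45, 1.04, 1.58 and 1.86%, against 0.719, 1.0, 0.887 and 1.10% in lymph node, where it was the most used member in replicates 2 and 4. For IGHV14-4 spleen replicate 2 lay within the lymph node range.

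IGHV14-2 reached 1.89, 0.415, 0.798 and 0.888% in spleen, against 0.389, 0.481, 0.383 and 0.536% in lymph node, again with spleen replicate 2 inside the lymph node range. IGHV14-1 was the least used member, with 0.811, 0.184, 0.358 and 0.363% in spleen, against 0.0981, 0.10, 0.0843 and 0.120% in lymph node, and these did not overlap. The fitted log2 fold changes, spleen over lymph node, were 2.13 for IGHV14-1, 1.22 for IGHV14-2, 1.69 for IGHV14-3 and 0.95 for IGHV14-4, given without a test. The median over all 91 V genes fitted was -0.12. All samples of bulk RNA share one limit: more B cells with a gene and more RNA per cell cannot be told apart in copies.

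**Figure D1:**
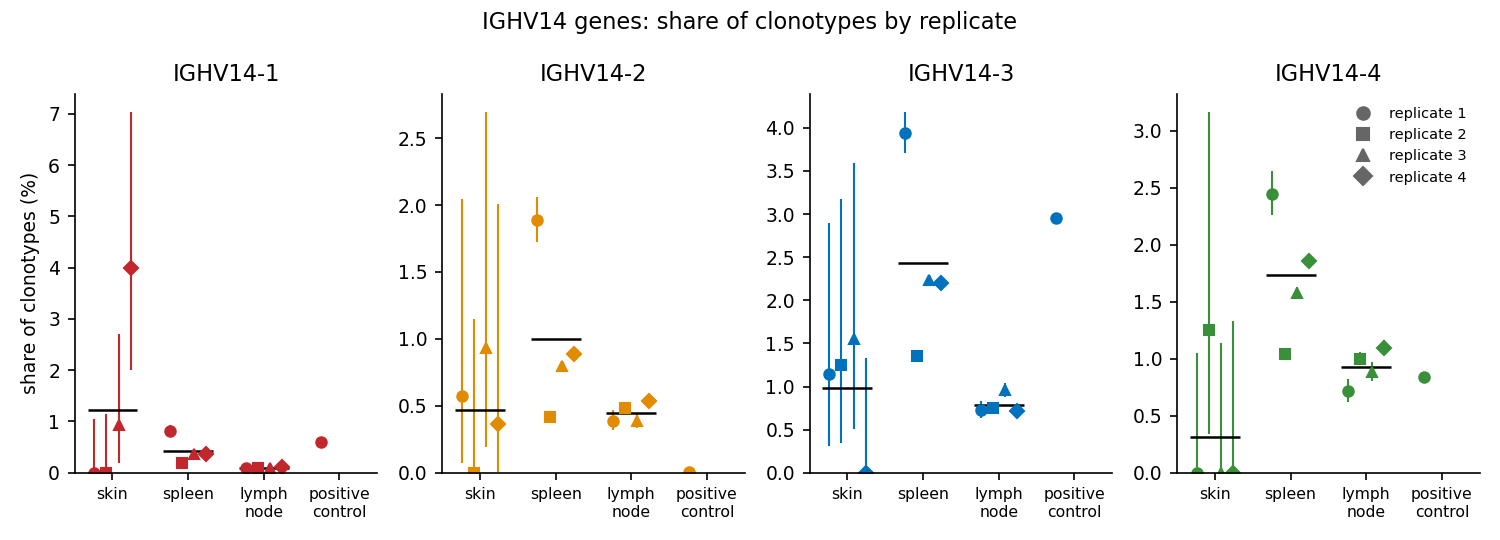
Share of clonotypes (%) that used each IGHV14 gene, one panel per gene with its own vertical axis, by tissue and for the positive control. Each marker is 1 biological replicate with its Clopper-Pearson 95% interval and black lines are means of 4; skin intervals are wide, and spleen replicate 1 is the highest spleen replicate for all 4 genes.

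Skin held few clonotypes of the family, 6, 8, 11 and 12 among 350, 320, 322 and 275. IGHV14-1 had 0, 0, 3 and 11 skin clonotypes, IGHV14-2 had 2, 0, 3 and 1, IGHV14-3 had 4, 4, 5 and 0, and IGHV14-4 had 0, 4, 0 and 0. A count of 0 of 350 clonotypes allows a share of up to 0.857%, which is above the lymph node means of IGHV14-1, IGHV14-2 and IGHV14-3. The share in skin replicate 4 was 4.36%, with an exact 95% interval of 2.27 to 7.5% that covers counting error only.

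Skin against lymph node was the one tissue contrast of the share that did not set spleen against another tissue. The lymph node values did enter the choice of the family, as its lower side, so this test is not free of that choice. The edgeR quasi-likelihood test, which models counts with their spread between replicates, called 0 of the 4 members at an adjusted p under 0.05, beside 0% of 91 V genes (17 had an unadjusted p under 0.05, and DESeq2 called 6). IGHV14-1 had a log2 fold change, skin over lymph node, of 3.41 ± 0.996 (SE), adjusted p = 0.0619. Its level in skin rested on replicate 4, and without that replicate the log2 fold change was 1.47. Replicate 4 held 11 clonotypes of the gene, 7 of which belonged to 1 lineage of similar junctions. The other log2 fold changes were -0.03 for IGHV14-2, 0.27 for IGHV14-3 and -1.64 for IGHV14-4, with adjusted p from 0.328 to 0.975. All IGHV14-4 clonotypes of skin were in replicate 2, and without it, with 0 clonotypes in the remaining skin replicates, the gene was called as lower in skin (adjusted p = 0.0313), with no fold change that can be read.

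In spleen and in lymph node, IGHV14-1 and IGHV14-2 were far more frequent among IgD than among IgM clonotypes. Skin held too few to compare, with 0, 0, 3 and 1 IgD clonotypes of IGHV14-1 and 0 of IGHV14-2 in every replicate. IGHV14-1 made up 1.57, 0.496, 0.967 and 0.881% of IgD clonotypes in spleen, against 0.395, 0.119, 0.217 and 0.195% of IgM clonotypes. In lymph node it made up 0.20, 0.223, 0.152 and 0.296% of IgD clonotypes, against 0.0665, 0.0609, 0.0671 and 0.0666% of IgM clonotypes. The IgD values exceeded the IgM values without overlap in both organs.

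IGHV14-2 showed the same order, with 3.94, 0.737, 1.52 and 1.85% of IgD clonotypes in spleen, against 1.35, 0.317, 0.589 and 0.677% of IgM clonotypes. In lymph node it held 0.867, 0.891, 0.802 and 1.09% of IgD clonotypes, against 0.279, 0.343, 0.271 and 0.379% of IgM clonotypes. Each replicate's IgD share was above its own IgM share. This contrast was added after the values had been seen, with the replicate as a block because both isotypes come from the same libraries.

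In spleen, edgeR called 3 of the 4 members between IgD and IgM, beside 45.1% of 91 V genes. IGHV14-1 (log2 fold change 2.06 ± 0.102, adjusted p = 1.61e-11) and IGHV14-2 (1.33 ± 0.0964, adjusted p = 2.69e-09) were higher in IgD, and IGHV14-3 was lower (-0.38 ± 0.0779, adjusted p = 0.000468). Without the block 1 member was called. In lymph node 3 of 4 members were called, beside 54.5% of 88 V genes. There IGHV14-1 was higher by 1.81 ± 0.186 (adjusted p = 4.94e-18), IGHV14-2 by 1.44 ± 0.0938 (adjusted p = 1.33e-36), and IGHV14-4 fell by 0.24 on the log2 scale (adjusted p = 0.00371). That last call was lost with DESeq2, with copies, without single-copy clonotypes, without the block, and without replicate 2 or 4. IGHV14-4 in spleen, at 0.03, and IGHV14-3 in lymph node, at -0.15, did not pass.

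Calls were common in this contrast, so the members' ranks are given as well. Among 75 V genes with at least 15 IgM clonotypes in each of 8 replicates, IGHV14-1 ranked between 1 and 3 by its IgD to IgM ratio and IGHV14-2 between 1 and 2 in all 8 replicates. Their mean ratios were 3.82 and 2.76, and the next gene by mean ratio, IGHV1-63, had 1.83 with replicates from 0.835 to 3.14. IGHV14-3 averaged 0.870 and IGHV14-4 0.959. Among clonotypes with no V mismatch, the ratio of IGHV14-1 ran from 4.11 to 6.84 and that of IGHV14-2 from 2.59 to 3.81, above 1 in 8 of 8 replicates. In the control, where IGHV14-1 is on allele *02, its ratio was 1.15.

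**Figure D2:**
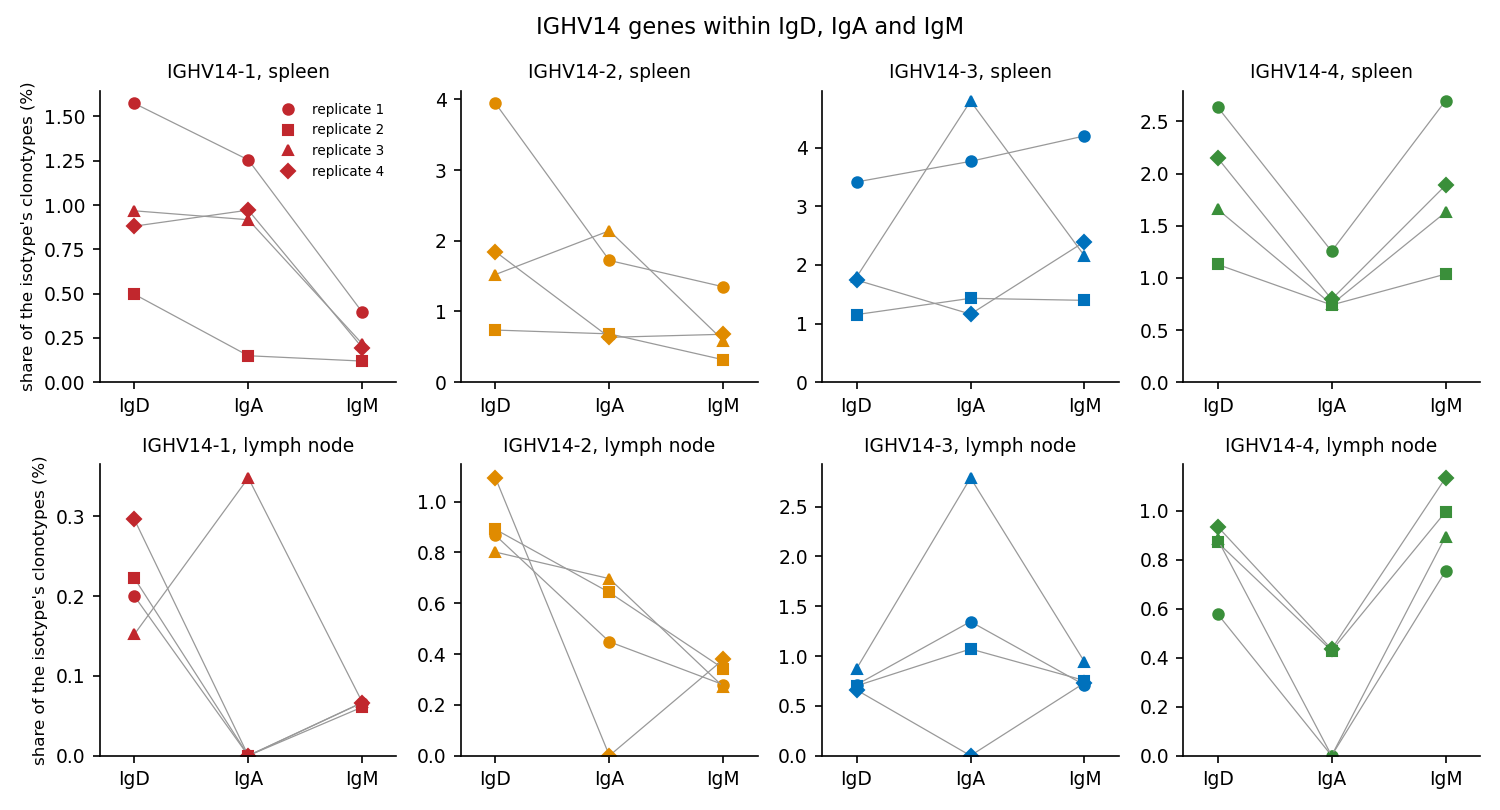
Share (%) of the clonotypes of IgD, IgA and IgM that used each IGHV14 gene in spleen (top) and lymph node (bottom), with one marker per replicate, grey lines joining the isotypes of 1 replicate, and a separate vertical axis per panel. IGHV14-1 and IGHV14-2 stand higher in IgD than in IgM in all 8 replicates, and lymph node IgA values rest on 223 to 467 clonotypes per replicate.

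IgA clonotypes of spleen, the switched class with the most clonotypes there, divided the family. IGHV14-1 held 1.25, 0.149, 0.917 and 0.971% of spleen IgA clonotypes, against the IgM values above, and was higher in all 4 replicates. IGHV14-4 held 1.25, 0.740, 0.746 and 0.794% of IgA clonotypes, against 2.70, 1.04, 1.63 and 1.89% of IgM clonotypes, and was lower in all 4. IGHV14-3 held 3.76, 1.43, 4.79 and 1.16% of IgA clonotypes, against 4.2, 1.4, 2.15 and 2.39% of IgM clonotypes, and went both ways. IGHV14-2 held 1.72, 0.683, 2.14 and 0.634% of IgA clonotypes, against its IgM values above, and was higher in replicates 1 to 3 and lower in replicate 4.

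edgeR called 3 of the 4 members in spleen IgA against spleen IgM, beside 33.7% of 86 V genes. IGHV14-1 was higher by 1.71 ± 0.398 (log2, adjusted p = 0.00128) and IGHV14-2 by 0.90 ± 0.328 (adjusted p = 0.0278), and IGHV14-4 was lower (-0.90 ± 0.287, adjusted p = 0.0155). IGHV14-3, at 0.08, did not pass. With lineages in place of clonotypes IGHV14-1 kept its call with a smaller log2 fold change of 0.84 (edgeR, adjusted p = 0.00265). No member was called when copies were tested in place of clonotypes, without the replicate block, or without replicate 3. The IGHV14-2 call was also lost with library sizes only (adjusted p = 0.0509), with no filter on low counts (0.102), without replicate 2 (0.121) and with lineages in place of clonotypes (log2 fold change 0.35, adjusted p = 0.0871). The family as a whole held 8.0, 3.0, 8.59 and 3.56% of spleen IgA clonotypes, against 8.64, 2.87, 4.59 and 5.15% of spleen IgM clonotypes, with no common direction.

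IgG2 of spleen gave 1 call in 4 members, beside 17.1% of 82 V genes. It was IGHV14-1, with 0.648, 0.241, 0.772 and 0.474% of IgG2 clonotypes (log2 fold change over IgM 1.19 ± 0.380, adjusted p = 0.0474). The call was lost without the block, with copies, with no filter on low counts, with each clonotype given only the isotype of most copies, and without replicate 2, 3 or 4. With lineages it was also lost (0.80, adjusted p = 0.0520), and there IGHV14-4 was the member called, lower in IgG2 (-0.67, adjusted p = 0.00715). In lymph node, 0 of 3 members tested were called in IgA, beside 1.27% of 79 V genes, and 0 of 3 in IgG2, beside 0% of 79 (edgeR; 18 V genes had an unadjusted p under 0.05 in IgG2 and 14 in IgA). Lymph node replicates held 4, 10, 11 and 2 IGHV14 clonotypes with IgA, and these counts limit the test.

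Rarer isotypes held isolated groups of IGHV14 clonotypes. In lymph node replicate 2, 8 of 20 IgE clonotypes and 148 of 180 IgE copies were IGHV14, whereas the other lymph node replicates had 0 of 11, 0 of 1 and 0 of 14 IgE clonotypes. In spleen replicate 1, 12.2% of 658 IgG1 clonotypes were IGHV14, against 3.76, 2.75 and 3.27% in the other spleen replicates.

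Among IgM clonotypes the members also stood out by the J gene they were joined to. IGHV14-1 and IGHV14-2 were joined to IGHJ3 in 38.0 ± 4.13% and 38.6 ± 4.75% of spleen IgM clonotypes, and in 29.7 ± 12.8% and 30.8 ± 4.83% in lymph node (SD, n = 4). The sum of other V genes was at 11.2 ± 1.16% in spleen and 7.68 ± 0.444% in lymph node. Averaged over the 8 replicates, the highest IGHJ3 shares of 75 V genes were 34.7% for IGHV14-2, 33.9% for IGHV14-1 and 18.4% for IGHV14-4. The highest value outside the family was 15.1%, in IGHV2-9. Among IgD clonotypes of the same organs the IGHJ3 excess was smaller. In spleen IgD, IGHV14-1 had 22.4 ± 3.20% and IGHV14-2 19.5 ± 5.05%, against 14.4 ± 3.23% in other V genes. In lymph node IgD they had 17.0 ± 6.80% and 8.18 ± 4.15%, against 7.66 ± 0.417%.

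The other side of this pattern was IGHJ4 and IGHJ1. IGHV14-2 and IGHV14-1 had the lowest IGHJ4 shares of the 75 genes, 11.3% and 12.8%, where the median of the others was 34.9%. They also had the lowest IGHJ1 shares, 7.52% and 5.33%, against a median of 20.2%. Their IGHJ2 shares, 46.5% and 48.0%, were the highest. Among spleen IgD clonotypes, IGHV14-2 and IGHV14-1 had 28.8% and 25.9% IGHJ4, against 37.0% in other V genes. Their IGHJ1 shares there were 19.5% and 19.9%, against 23.8%, so the J pattern was weaker in IgD than in IgM. IGHV14-3 was close to the other genes for each J gene, with 18.6% IGHJ1, 35.1% IGHJ2, 9.75% IGHJ3 and 36.6% IGHJ4, although its V sequence differs from IGHV14-2 at 7 bases of the covered stretch. In the control, IGHV14-1, IGHV14-3 and IGHV14-4, all on allele *02, had IGHJ3 in 25.4, 18.1 and 26.6% of IgM clonotypes, and the other V genes in 22.1%.

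**Figure D3:**
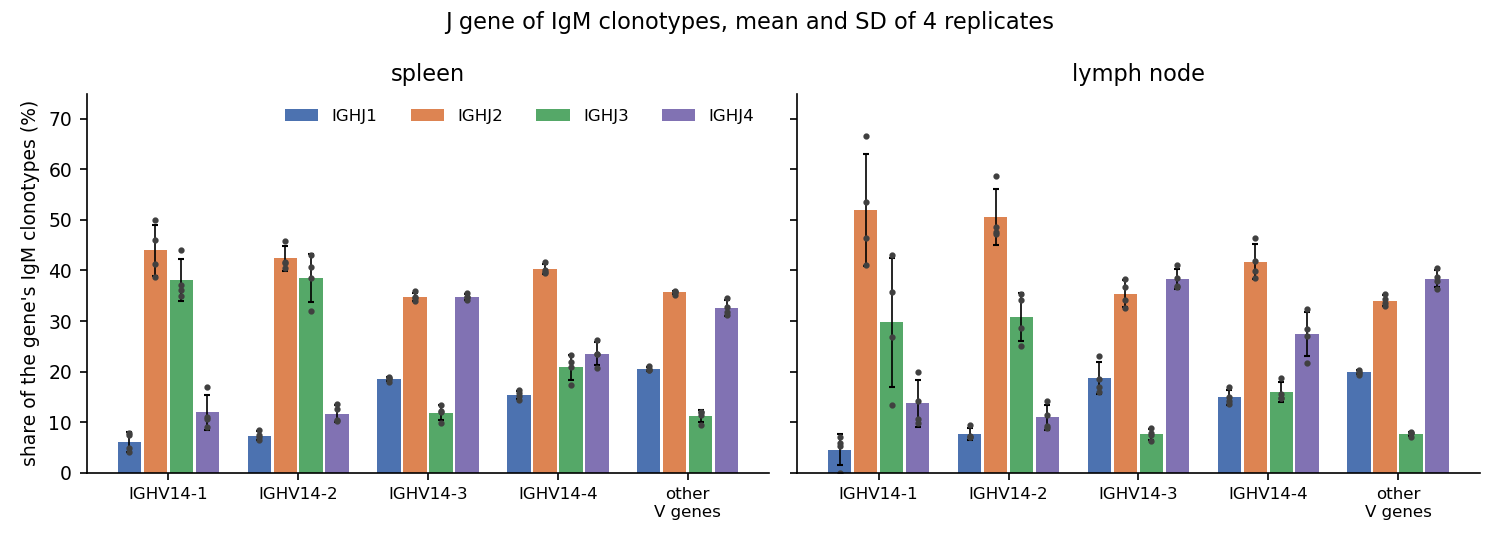
Share (%) of each gene's IgM clonotypes joined to IGHJ1, IGHJ2, IGHJ3 and IGHJ4 in spleen and lymph node, as bars of the mean with SD over 4 replicates and dots for replicates. The IGHJ3 bars of IGHV14-1 and IGHV14-2 stand above and their IGHJ4 bars below those of the other V genes, while IGHV14-3 lies close to the other V genes.

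The CDR3 of IGHV14 IgM clonotypes was short in spleen and lymph node. IgM clonotypes of the family had a mean CDR3 of 11.0 ± 0.0504 amino acids in spleen and 11.4 ± 0.168 in lymph node, against 12.0 ± 0.0951 and 12.3 ± 0.0438 in other V genes of the same organs (SD, n = 4). The family was shorter in each of 8 replicates, with a difference, family minus others, of -1.03 to -0.906 amino acids in spleen and -1.11 to -0.803 in lymph node. In skin IgM, from 4, 2, 5 and 2 clonotypes, the difference was -0.134, -3.63, 1.17 and 1.28 amino acids, with no common direction. IGHV14-4, IGHV14-2 and IGHV14-1 averaged 10.8, 10.8 and 11.0 amino acids and ranked 2, 3 and 5 from the shortest of the 75 genes. IGHV14-3, at 11.8, ranked 12. The shortest was IGHV6-3, at 10.2.

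**Figure D4:**
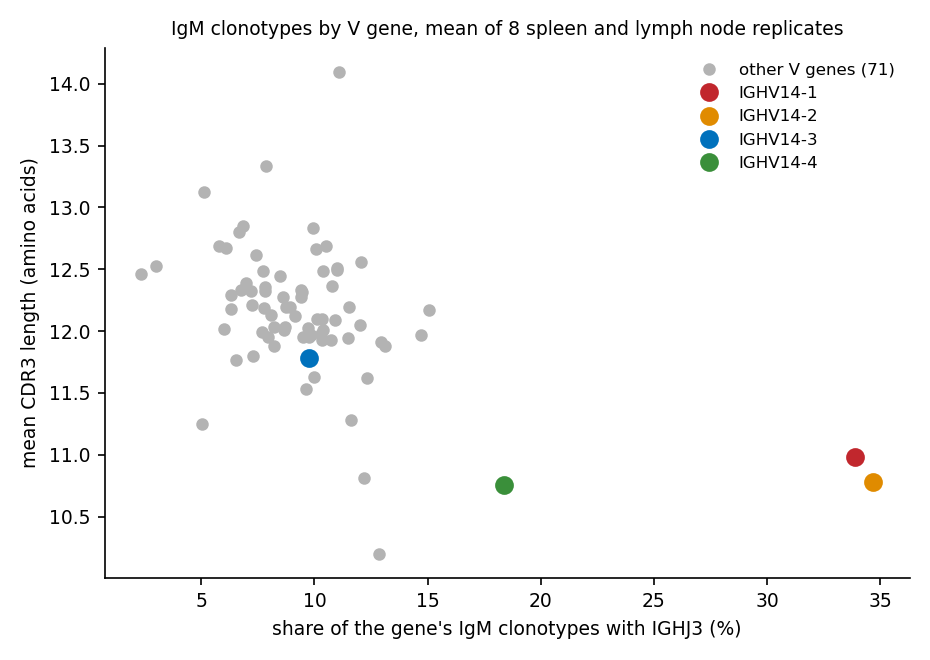
Mean CDR3 length (amino acids) against the share of IgM clonotypes joined to IGHJ3 (%), one point per V gene, as means of the 8 spleen and lymph node replicates, with the 71 other V genes in grey. IGHV14-1 and IGHV14-2 lie far to the right of all other genes, IGHV14-4 between them and the rest, and IGHV14-3 inside the cloud.

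Between organs, limma on per-gene means called all 3 members tested as shorter in spleen IgM, beside 61.6% of 73 V genes, all of which were shorter in spleen. IGHV14-2 had mean CDR3 lengths of 10.7, 10.2, 10.6 and 10.6 amino acids in spleen, against 11.3, 11.1, 11.2 and 10.7 in lymph node, a difference of -0.54 ± 0.135 amino acids (SE, adjusted p = 0.0106). IGHV14-3 differed by -0.48 ± 0.133 and IGHV14-4 by -0.38 ± 0.106 (adjusted p = 0.0172 for both). The median V gene differed by -0.33, and with each replicate centred on its median V gene 0 members were called. IGHV14-1 was not tested because lymph node replicate 1 held 15 of its IgM clonotypes.

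IGHJ3 joining was called as higher in spleen IgM for 1 of 3 members, beside 39.7% of 73 V genes, all higher in spleen. IGHV14-3 was joined to IGHJ3 in 12.3, 9.85, 13.4 and 12.0% of spleen IgM clonotypes, against 7.5, 7.79, 8.91 and 6.26% in lymph node (log2 odds difference 0.69 ± 0.175, adjusted p = 0.0145). IGHV14-2 and IGHV14-4 differed by 0.49 and 0.47 (adjusted p = 0.0835 and 0.0525) near a median of 0.50 over all genes. With V genes of at least 50 IgM clonotypes 3 members were called, and with centring 0.

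IGHJ4 joining gave 0 of 3 members, beside 57.5% of 73 V genes, with 42 called as lower in spleen. IGHV14-2, IGHV14-3 and IGHV14-4 differed by 0.09, -0.22 and -0.29 in log2 odds (adjusted p = 0.662, 0.0587 and 0.155), where the median gene differed by -0.35. IGHV14-3 and IGHV14-4 had lower means in spleen, as other V genes did, with 34.8% against 38.3% in lymph node and 23.5% against 27.4% in lymph node. For IGHJ1, IGHJ2, V mutation and copies per clonotype 0 of 3 members passed, beside 0% of 73 V genes in each (limma, with 8, 8, 3 and 1 genes at an unadjusted p under 0.05).

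Mutation of the family was lower in IgM than in IgA in spleen. IgM clonotypes of the family had on average 0.487 ± 0.0808% of V nucleotides mismatched in spleen and 0.458 ± 0.0565% in lymph node, against 0.593 ± 0.0974% and 0.498 ± 0.0474% in other V genes (SD, n = 4), and spleen replicate 3 had the family above the others, with 0.530% against 0.512%. Skin IgM clonotypes of the family had 5.21, 4.70, 1.95 and 4.51%, from 4, 2, 5 and 2 clonotypes, against 0.626, 0.867, 0.873 and 0.780% in other V genes, and were higher in all 4 replicates. In skin replicates 1 to 3 this order rested on few clonotypes with the 3′ ends described below. Skin replicate 4 held 0 such IgM clonotypes. Leaving out such clonotypes gave skin IgM values of the family of 0, 0.694, 0 and 4.51%, a step that can only lower them. Spleen IgA clonotypes had 3.53, 2.65, 3.93 and 2.69% in the family, against 3.08, 2.96, 3.32 and 3.26% in other V genes, and overlapped. Skin IgA clonotypes of the family had 7.39, 3.99, 5.64 and 3.92%, from 2, 5, 3 and 10 clonotypes, against 2.39, 4.38, 2.87 and 3.97% in other V genes.

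Part of the IgM mismatches sat at the 3′ end of the V gene and matched the bases of other families. Junctions that start TGTGCA, which no IGHV14 germline has, made up 0.370% of unmutated and 73.0% of over 4% mutated IGHV14 IgM clonotypes in spleen, against 75.9% and 82.8% in other V genes. In lymph node the IGHV14 values were 0.369% and 93.6%. Clonotypes with this start and with A121T, C126G or A127G, counted along IGHV14-3*01 from the first base of CDR2, made up 3.43% of IGHV14 clonotypes in spleen, 3.25% in lymph node and 3.03% in the control. They held 1.35, 1.40 and 2.13% of IGHV14 copies, and 96.8, 95.5 and 95% of them had a single copy.

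Without these clonotypes, a step added after the values were seen, IgM mutation of the family was 0.397, 0.342, 0.366 and 0.273% in spleen and 0.272, 0.334, 0.307 and 0.251% in lymph node. The clonotypes left out were picked by their mismatches and averaged 5.16% in spleen and 4.98% in lymph node, so this step can only lower the family, and it gives no comparison with other V genes. How these ends arose was not tested. Of the 37 skin clonotypes of the family 6 carried such an end, 5 of them with 1 copy. A further IgM clonotype of skin 4, with 5.56% mismatches, started TGTGCA without those substitutions. A junction and J gene of 1 replicate also appeared under another V gene for 7.81 to 23.6% of IGHV14 clonotypes in spleen and lymph node, against 12.5 to 24.6% of other clonotypes, so the V assignment of single clonotypes is not always unique. In skin this held for 16.7, 25, 18.2 and 41.7% of IGHV14 clonotypes, against 12.2, 14.4, 20.9 and 15.2% of other clonotypes.

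Without those ends, recurrent substitutions in spleen IgA IGHV14-3*01 sequences were counted once per lineage, over 42, 153, 55 and 90 lineages. The most frequent was A127G, in 16.7, 19.0, 27.3 and 23.3% of lineages. It yields the base that IGHV14-1, IGHV14-2, IGHV14-4 and also allele IGHV14-3*02 carry in germline at this position. G47A followed, in 11.9, 13.1, 27.3 and 4.44%. A19G, in CDR2, was found in 19.0, 9.80, 10.9 and 6.67%, and it too yields the germline base of the other 3 genes. G64A and A80G reached 34.5% and 32.7% in replicate 3 but 4.44 to 4.76% in the other replicates. A127G and A121T belong to the end substitutions above, which were left out only where the junction also started TGTGCA. A121T remained in 4.76, 9.80, 12.7 and 13.3% of lineages, so some such ends may remain. The mean share of lineages substituted per position was 6.45, 6.56, 7.12 and 2.64% in CDR2, against 5.06, 4.27, 8.32 and 2.98% in framework 3, with a ratio above 1 in replicates 1 and 2 only.

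Single expanded clonotypes carried nearly all IGHV14 copies of skin replicates 1 and 4, and they were also found in spleen. The largest IGHV14 clonotype of each skin replicate that both technical libraries held is shown with its junction, in which capitals mark the bases aligned to the V gene.
Skin 1, IGHV14-3 with IGHJ2: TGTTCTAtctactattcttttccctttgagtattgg
Skin 2, IGHV14-3 with IGHJ4: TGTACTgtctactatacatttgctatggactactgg
Skin 3, IGHV14-3 with IGHJ2: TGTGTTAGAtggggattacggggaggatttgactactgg
Skin 4, IGHV14-1 with IGHJ2: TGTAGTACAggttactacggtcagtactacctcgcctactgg
The clonotype of skin 1 had 696 copies, all IgA, which were 97.2% of the IGHV14 copies and 13.0% of all copies of that replicate, with 142 and 554 in the technical libraries. Its V gene was 7.76% mutated. The clonotype of skin 4 had 693 copies, 374 as IgA and 319 as IgM, which were 97.6% of IGHV14 copies and 12.3% of all copies, with a V mutation of 3.48%.

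Those of skin 2 and skin 3 were smaller, with 15 and 37 copies, all IgA, and V mutations of 6.48% and 4.95%. Each of the 4 was found again in the spleen replicate of the same number, with 658, 44, 56 and 20 copies, and in no other tissue replicate. Larger ones held by only 1 technical library were left out. In skin 3 this was an unmutated IGHV14-1 clonotype of 42 copies, all IgD, with 0 copies in spleen 3. In skin 2 these were an IGHV14-3 clonotype of 19 IgA copies, 0.709% mutated, and an unmutated IGHV14-4 clonotype of 16 IgG2 copies. They had 641 and 13 copies in spleen 2. The skin 1 clonotype was also the largest IGHV14 clonotype of spleen 1. IGHV14 copies per clonotype averaged 119, 8.13, 14.8 and 59.2 in the skin replicates, against 13.5, 23.8, 15.5 and 18.7 for other V genes.

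Of the 37 IGHV14 clonotypes of skin, 12 (32.4%) were in the spleen replicate of the same number, 3 in each replicate. In skin 4 the same IGHJ1 junction was counted under both IGHV14-1 and IGHV14-2, with 1 and 164 spleen copies. Another 1 was in a spleen of another number, 0 were in the lymph node of the same number and 1 was in a lymph node of another number. Of 1230 skin clonotypes with other V genes, 140 (11.4%) were in the spleen of the same number, 33 in a spleen of another number and 33 in the lymph node of the same number. The 2 sets differed in isotype. IgA was found on 2, 5, 3 and 10 of the family's 6, 8, 11 and 12 skin clonotypes. With other V genes it was found on 48, 92, 82 and 82 of 344, 312, 311 and 263. Spleen held more copies than lymph node in each replicate. The parts of isotype and of depth in the sharing counts were not tested. The labels do not say whether equal numbers mark 1 animal.

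**Figure D5:**
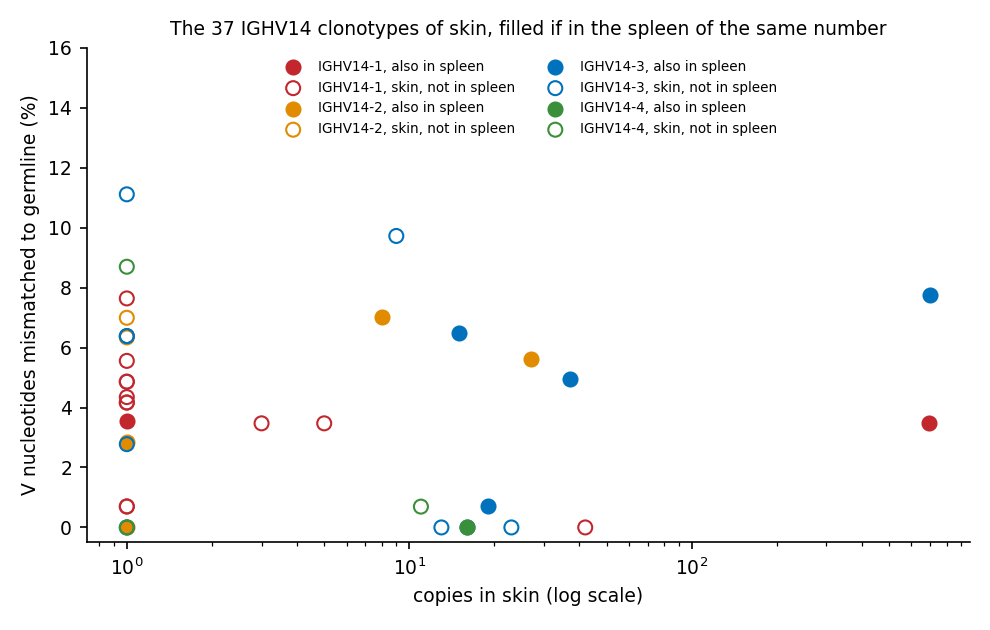
V mismatches to germline (% of aligned V nucleotides) against copies in skin (log scale) for the 37 IGHV14 clonotypes of the 4 skin replicates, coloured by gene and filled where the spleen of the same number held the clonotype. The 2 clonotypes with 693 and 696 copies are filled, and most open points have a single copy.

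In spleen and lymph node the largest IGHV14 clonotype of each replicate made up 4.30, 3.35, 6.92 and 15% of IGHV14 copies in spleen, against 2.96, 8.92, 25.2 and 9.61% in lymph node. In replicate 4 both organs shared the largest one, which is shown with the unmutated largest clonotype of spleen 2.
Spleen 4 and lymph node 4, IGHV14-4 with IGHJ2: TGTgatggttactactactgg
Spleen 2, IGHV14-3 with IGHJ4: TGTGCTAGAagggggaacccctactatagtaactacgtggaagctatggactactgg
The first has a CDR3 of 5 amino acids and no V mismatch in spleen 4, and it had 5287 copies in spleen 4, all IgA, and 478 in lymph node 4, all IgM. The second had 1047 copies, all IgA, also with 0 mismatches. By contrast, the largest of spleen 3, an IGHV14-3 clonotype of 2320 copies, was split into 1676 IgA and 644 IgM copies and was 5.17% mutated. In lymph node 3 the largest had 933 copies, all IgG2, with a mutation of 0.0270%.

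Few IGHV14 clonotypes recurred across replicates. Of 49094 distinct ones in the 12 tissue replicates, 534 (1.09%) were in 2 or more, against 1.66% of 1214873 with other V genes. The most widespread occurred in 5 replicates, 3 of spleen and 2 of lymph node, with 14 copies in all, and it joins IGHV14-4 to IGHJ2 with a CDR3 of 4 amino acids. It is shown with the next by copies, each in 4 replicates, to let their junctions be compared.
IGHV14-4 with IGHJ2: TGTACTACAgactactgg
IGHV14-4 with IGHJ3: TGTACTAggtttgcttactgg
IGHV14-4 with IGHJ4: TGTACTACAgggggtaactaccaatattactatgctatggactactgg
IGHV14-3 with IGHJ4: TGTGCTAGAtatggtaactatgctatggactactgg
IGHV14-3 with IGHJ2: TGTGCTAactgggactactgg
The last 2 were also in the control, and none of the 5 was in skin.

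Across the 8 spleen and lymph node replicates the members varied together, with Pearson r of log2 shares between 0.884 for IGHV14-2 with IGHV14-3 and 0.970 for IGHV14-1 with IGHV14-3. Of 58 other V genes with at least 50 clonotypes in each replicate, those most like the summed family were IGHV1-55 (r = 0.989), IGHV1-5 (0.971), IGHV1-82 (0.968), IGHV1-85 (0.949) and IGHV1-75 (0.925). These values describe 8 points that share their libraries and fall into 2 organs. The family was chosen for its difference between these 2 organs, so the r values are partly set by that choice. IGHV1-55 made up 4.91% of clonotypes in spleen and 3.02% in lymph node on average.

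Genes that lie among the IGHV14 genes in the locus were mostly lower in spleen, which is again a description. Of 17 annotated neighbours 7 could be fitted, with a median log2 fold change, spleen over lymph node, of -0.50, and 2 of 7 above 0. Over all V genes fitted, 39 of 91 were above 0, with a median of -0.12. The neighbours named next are only those at or below the median of the 7, whose highest value was 0.04. IGHV3-1 averaged 0.0144 ± 0.00683% of clonotypes in spleen and 0.0671 ± 0.0147% in lymph node, and IGHV3-3 0.0213 ± 0.0146% and 0.0693 ± 0.0226% (SD, n = 4). IGHV9-2 averaged 0.272 ± 0.108% in spleen and 0.402 ± 0.0714% in lymph node, and IGHV9-1 0.739 ± 0.177% and 1.05 ± 0.259%. The medians of other lists were -1.59 for 5 genes of the IGHV3 family, 0.02 for 3 of IGHV7, -0.23 for 4 of IGHV9 and 0.39 for 2 of the B-1a genes IGHV11-1, IGHV11-2 and IGHV12-3.

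In the isotype contrasts the same lists, some of whose genes are also neighbours, held few genes that rose. Over all V genes, 26 of 91 fell and 15 rose in spleen IgD, and 27 of 88 fell and 21 rose in lymph node IgD. In spleen IgD against IgM, 3 of 3 IGHV7 genes, 3 of 4 IGHV9 genes, 1 of 4 IGHV3 genes and 3 of 6 neighbours fell, and 0 genes of these lists rose. In lymph node IgD against IgM, 3 of 3 IGHV7, 3 of 4 IGHV9, 3 of 5 IGHV3 genes and 3 of 7 neighbours fell and 0 rose. In spleen IgA against IgM, where 15 of 86 V genes fell and 14 rose, 3 of 4 IGHV9 genes and 2 of 5 neighbours fell and 0 rose, and 0 genes passed among 3 of IGHV3, 3 of IGHV7 and 1 of the B-1a genes. In spleen IgG2 against IgM, where 9 of 82 V genes fell and 5 rose, 1 of 2 B-1a genes rose, and 2 of 3 IGHV7 genes, 1 of 4 IGHV9 genes and 2 of 5 neighbours fell.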

How the data were processed

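Per the labels' protocols, a commercial service reverse-transcribed RNA with constant-region primers carrying a 10-nucleotide molecular identifier, extended with V-gene primers and sequenced from framework 2. The deposited tables give a whole-number count per sequence, called copies here; per the file headers it is not stated whether these are identifiers or reads. The deposited V mismatches and aligned V lengths per sequence are other measurements. The build was mm10, per the submitters' processing notes; the V assignment tool was not given in the sources used here.

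Technical tables were summed per replicate. Lineages joined junctions at 85% CDR3 identity. Clonotypes per V gene were tested with edgeR 4.0.16 (TMM, its filter for low counts), with DESeq2 1.42.0 as an alternative. Per-gene means of IgM clonotypes were tested with limma 3.58.1 for V genes of at least 20 clonotypes in each replicate, with 0.5 added in J odds. P-values were adjusted by Benjamini-Hochberg over all V genes tested. The steps were tested on simulated data. R 4.3.3, Python 3.11.15, pandas 2.3.3 and scipy 1.17.1 were used.

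Members and lists were chosen with earlier results of these data known. Named were all members, the 5 V genes most like the family, up to 4 neighbours, the listed families, the largest IGHV14 clonotype per replicate in both technical tables and the 5 most widespread; other clonotypes and substitutions were named after their values were seen. Of 188 V genes, 119 matched a RefSeq symbol. Same-numbered samples deviated together with r from -0.01 to 0.11 for skin and lymph node, -0.18 to 0.25 for spleen and lymph node and -0.01 to 0.14 for skin and spleen. Not every r exceeded 0.1 and the labels state no shared animal, so numbers were not taken as pairs between tissues, although 12 of 37 IGHV14 clonotypes of skin were in the same-number spleen and 1 in another.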

Additional observations from a re-analysis of the deposited data

Results flagged for a closer look

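In 79 groups of 4 replicates, 9 held a replicate far from the others by Dixon's criterion, where chance alone gives about 1 group in 20. Spleen replicate 1, the smallest spleen replicate, had 2.85 copies per IgM clonotype of IGHV14-2, 4.57 of IGHV14-3 and 4.74 of IGHV14-4, and the shortest IGHV14-4 CDR3 at 10.3 amino acids. Other V genes of that replicate also had the most copies per IgM clonotype in spleen, 4.08. IGHV14-4 made up 1.25% of clonotypes in skin replicate 2 and had a count of 0 in the other skin replicates. IGHV14-3 was high in lymph node replicate 3, at 0.958%. In lymph node replicate 2 the family held 4.03% of IgG2 clonotypes and IGHJ2 58.7% of IGHV14-2 IgM clonotypes, and in lymph node replicate 1 IGHJ1 made up 9.52% of IGHV14-2 IgM clonotypes.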

How the results depend on the processing

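The family share, spleen minus lymph node, was 3.33 percentage points, 3.2 to 3.8 under 6 other ways of counting (copies, lineages, no single-copy clonotypes, IgM only, no IgA, thinned) and 2.16 to 4.19 leaving out a replicate. For single members 344 alternatives were set against the first value, of which 280 kept direction and side of the threshold, 34 lost the call, 13 gained one and 17 turned direction. The cause of these changes was not tested.

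Skin against lymph node called 0 members, but 1 with DESeq2, with library sizes only or with no filter on low counts, and 0 to 2 leaving out a replicate. IGHV14-2 then turned to 0.31 with DESeq2, 0.080 with library sizes only and 0.094 with lineages, and ranged from -0.77 to 0.18 leaving out a replicate; IGHV14-3 ranged from -0.14 to 0.63. IGHV14-4 ranged from -13.04 to -1.30, where the lowest value is a fit to skin replicates all at 0 and no size of change. Spleen IgA against IgM called 3 members, but 0 with copies and 0 with no replicate block, and 0 to 3 leaving out a replicate. IGHV14-3 there was -0.072 with no filter, -0.20 without single-copy clonotypes, -0.24 with lineages and -0.28 to 0.41 leaving out a replicate. Spleen IgG2 called 1 member, 0 with no filter, 0 with copies, 0 with no replicate block, 0 with the isotype of most copies only, 2 without single-copy clonotypes and 0 to 1 leaving out a replicate; IGHV14-3 turned to 0.52 with copies. Lymph node IgA called 0 members, 1 with copies and 1 without single-copy clonotypes, and lymph node IgG2 0, 1 with DESeq2 and 1 with no replicate block. Spleen IgD called 3 members and 1 with no replicate block, and IGHV14-4 ranged from -0.012 to 0.13 leaving out a replicate. IGHV14-3 in lymph node IgD was 0.0037 without single-copy clonotypes.

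For IgM CDR3 length 3 members were called and 0 with centring on the median V gene. For IGHJ1 pairing the count was 0 and 1 without single-copy clonotypes. For IGHJ3 pairing it was 1, 3 with at least 50 clonotypes, 0 with centring, where IGHV14-2 was -0.10 and IGHV14-4 -0.13, and 1 to 3 leaving out a replicate. For IGHJ4 pairing it was 0, 1 with at least 50 clonotypes and 0 to 2 leaving out a replicate. The replicate number as a block between tissues changed no member count.

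Over all V genes, calls numbered 0 for skin against lymph node and 6 with DESeq2 or 13 with copies; 29 for spleen IgA, 3 with copies, 5 with no replicate block and 46 with lineages; 14 for spleen IgG2 and 1 with copies or no replicate block; 1 for lymph node IgA and 12 with no replicate block; 0 for lymph node IgG2, 16 with no replicate block and 14 with lineages; 41 for spleen IgD and 4 with no replicate block; and 48 for lymph node IgD and 21 with copies. For CDR3 length 45 genes became 2 with centring, for IGHJ3 29 became 0 with centring and 17 with the replicate block, and for IGHJ4 42 became 0 with centring, 14 with the block and 0 without spleen replicate 4 or lymph node replicate 3. Depth limits skin most: 37 IGHV14 clonotypes in 4 replicates. Intervals cover counting error only.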
